A study of Mus musculus with 4 samples.

Results

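The genes of glycolysis and of the response to low oxygen were followed in long-term hematopoietic stem cells (LT-HSCs) of the mouse. They were 35 genes chosen by name, 21 glycolytic enzymes and transporters and 14 regulators and hypoxia-induced genes, of 26687 gene symbols in the count tables. All 35 were present in all 4 tables, which shared 18743 symbols. The 4 libraries, 1 per genotype, came from bone marrow LT-HSCs isolated by flow cytometry from C57BL/6 mice aged 8 to 11 weeks and were made with the 10x Single Cell 3' v2 chemistry. The genotypes were Mx (labelled MxCRE, the reference control), NPMc+, Flt3-ITD and the double mutant NPMc+/Flt3-ITD. Mx names a Cre recombinase driven by the interferon-inducible Mx1 promoter, NPMc+ a nucleophosmin mutant that is retained in the cytoplasm, and Flt3-ITD an internal tandem duplication in the receptor tyrosine kinase Flt3. Both mutations are recurrent in human acute myeloid leukemia. Whether the mutant mice also carried the Cre, whether and when it was induced, and how many animals entered a library are not given in the sources used here.

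Glycolysis splits glucose into pyruvate in the cytosol, with a first stage that spends ATP and a second that returns it, and lactate dehydrogenase turns pyruvate into lactate. Under low oxygen the transcription factor HIF-1 is stabilised and raises many of these enzymes, together with genes that limit mitochondrial respiration and remove mitochondria. LT-HSCs lie in a marrow of low oxygen tension and are known for their reliance on glycolysis while dormant.

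Of 11407 barcodes, 10608 were kept, those that reached 1000 UMIs (unique molecular identifiers, 1 per captured transcript) and 500 genes with no more than 10% of UMIs from mitochondrial genes. The libraries held 2375 to 3321 kept cells, 20943905 to 26965367 UMIs and a median of 7323 to 9466 UMIs per cell, and each held cells of both sexes. Barcode sequences were shared between libraries in 160.0 pairs, of which 52 had both cells kept. Ribosomal protein genes took 30.0%, 28.1%, 27.9% and 19.9% of the UMIs (Mx, NPMc+, Flt3-ITD, double mutant), a gap that shifts every value scaled to the library total. Male cells, recognised by Y-linked UMIs without Xist, were 67.6%, 70.0%, 56.1% and 93.1% of the cells that could be sexed, in the same order. Of 10 stem cell markers all were detected in every library, and their summed level was 861, 768, 425 and 343 CPM. The 8 markers of multipotent and lymphoid progenitors, Dntt, Il7r and Satb1 among them, summed to 539, 496, 799.7 and 1916. The Npm1 and Flt3 values are UMI counts per gene without read sequence and cannot read either mutant allele.

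Levels are given as CPM, the UMIs of a gene over all UMIs of the kept cells of a library, scaled to the usual common total. Where 4 values follow each other with no names they are in the order Mx, NPMc+, Flt3-ITD, double mutant. Each captured transcript gives 1 tag at its 3' end whatever its length, so levels were not divided by transcript length. Of the 35 genes, 26 reached a mean of 20 CPM over the 4 libraries and entered the counts of higher and lower genes. Egln3 and Kdm3a reached this mean only through the double mutant library. Their place in its counts therefore rests on the level that is compared. The other 9 (Slc2a1, Eno3, Slc16a3, Pfkfb3, Pfkfb4, Egln1, Vegfa, Ankrd37 and P4ha1) are described by their values. A gene was counted from a ratio of 1.5-fold, and the same count over all 6256 genes at this level is given beside it. With 1 library per genotype there was no test between genotypes, no difference has a replicate check, and genotype cannot be told apart from animals, sort or library. Intervals are exact 95% intervals that cover counting error only.

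The double mutant library held more mRNA of the glycolytic enzymes than the other 3 libraries. In the 2 single mutants most of the enzymes and regulators stayed within 1.5-fold of the control. The 21 enzymes and transporters summed to 4897 CPM (Mx), 5515 (NPMc+), 4954 (Flt3-ITD) and 7074 (double mutant). Relative to Mx, NPMc+ stood at 1.13 (1.12 to 1.14), Flt3-ITD at 1.01 (1.0 to 1.02) and the double mutant at 1.44 (1.43 to 1.46). The small difference of Flt3-ITD changed its side of 1 with the scaling, at 0.982 when mitochondrial and ribosomal protein genes were left out of the library total (the reduced total). On the same total the double mutant stood at 1.26 and NPMc+ at 1.09. Markers of other cell types differed between the libraries as well. The mast cell and basophil markers summed to 16.9, 93.2, 50.6 and 656 CPM, led in the double mutant by Cpa3 (550 CPM), with Prss34 at 0 there and Ms4a2 at 0.482. The B lineage markers summed to 46.7, 1391, 79.8 and 195 CPM, led in NPMc+ by Igkc (963 CPM), with Pax5 at 0 in all 4 libraries. Cells were taken as rich in a lineage's markers at 3 or more UMIs of its list that made up at least 0.1% of the cell's UMIs. For megakaryocyte markers the share was 0.2%. Without cells rich in markers of any committed lineage the enzyme ratio was 1.13 for NPMc+ and 1.48 for the double mutant. The 14 regulators and hypoxia-induced genes summed to 518, 538, 539 and 695 CPM, a ratio to Mx of 1.04, 1.04 and 1.34.

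Against Mx, 3 of the 26 genes were higher in NPMc+ (Hk2, Ldha and Ddit4) and 3 were lower (Aldoc, Ldhb and Pdk1), where 4.33% of all genes were higher and 7.07% lower. In Flt3-ITD, 2 genes were higher (Egln3 and Ddit4) and 1 was lower (Ldhb), against 4.48% and 4.68% of all genes. In the double mutant, 8 genes were higher and 2 lower, against 13.1% and 8.81% of all genes. The 8 were Aldoc, Gapdh, Pgk1, Pgam1, Eno1, Pkm, Slc16a1 and Egln3, and the 2 lower ones were Hk2 and Ldhb. The median ratio of the 26 genes was 1.07 in NPMc+, 0.997 in Flt3-ITD and 1.42 in the double mutant, and that of all genes was 1.01, 0.967 and 1.16. With mitochondrial and ribosomal protein genes left out of the total, 4 members (Aldoc, Pgk1, Eno1 and Egln3) stayed above 1.5-fold in the double mutant. All genes were then split into 419 higher and 776 lower, in place of 819 and 551. With TMM scaling all genes were split into 472 higher and 258 lower in NPMc+, in place of 271 and 442, and into 381 and 155 in Flt3-ITD, in place of 280 and 293.

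**Figure D1:**
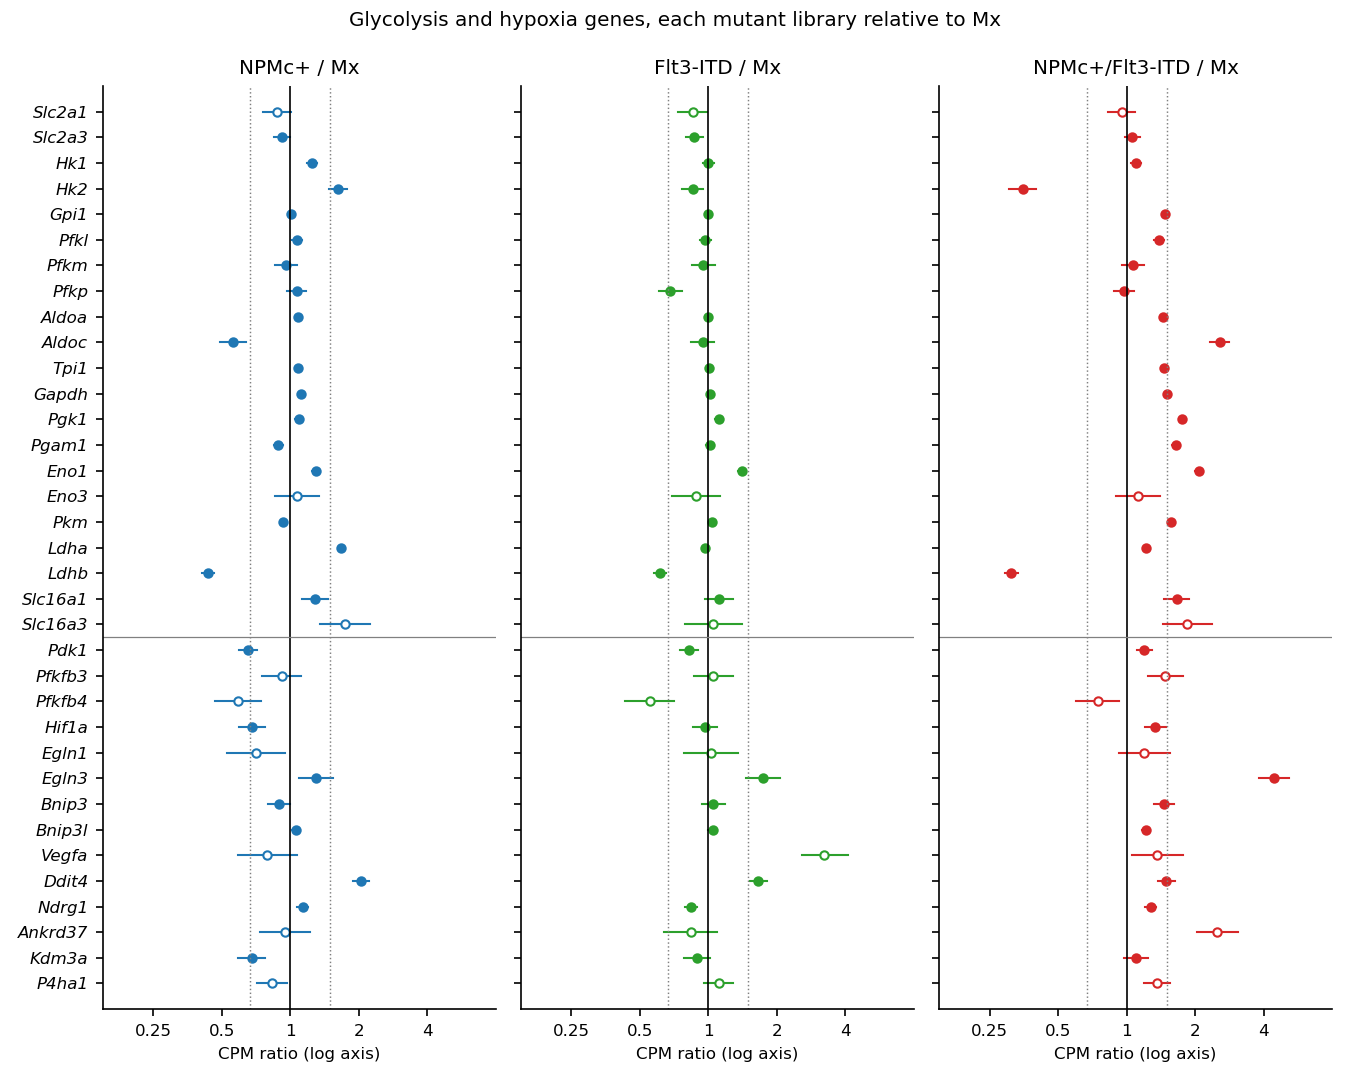
CPM ratio of each mutant library to Mx on a log axis, for the 21 enzymes and transporters (above the line) and the 14 regulators and hypoxia-induced genes (below it), with exact 95% counting intervals. Open points are the 9 genes under a mean of 20 CPM, and dotted lines mark 1.5-fold. In the double mutant most enzymes sit to the right of 1, while Hk2 and Ldhb sit to the left.

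Glucose enters the cell through facilitative transporters, here Slc2a1 (GLUT1) and Slc2a3 (GLUT3). Slc2a3 was the higher of the pair, at 53.4 CPM (Mx), 49.0 (NPMc+), 46.2 (Flt3-ITD) and 56.6 (double mutant). Slc2a1 stood at 18.9, 16.5, 16.1 and 18 CPM. Neither transporter differed from Mx by 1.5-fold in any mutant.

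Hexokinases trap glucose as glucose 6-phosphate, and the isoenzymes went separate ways. Hk1, the constitutive form on the outer mitochondrial membrane, stood at 110.1, 137, 110.0 and 121 CPM in Mx, NPMc+, Flt3-ITD and the double mutant. Hk2, the inducible form (chr6:82725025-82774454, minus strand, mm10), stood at 34.1, 55.2, 29.1 and 11.9 CPM. Hk2 was thus highest in NPMc+, 1.62-fold over Mx (1.48 to 1.77), and lowest in the double mutant, at a ratio of 0.35 (0.31 to 0.40). Among NPMc+ cells Hk2 was lower in the 867 cells with at least 3 UMIs of megakaryocyte markers (38.4 CPM in cells thinned to 3000 UMIs) than in the other 1383 (79.3 CPM). In Mx the same split gave 35.9 and 31.5 CPM. The rule for cells rich in megakaryocyte markers (at least 0.2% of the UMIs) is another one and left 2129 of the 2375 NPMc+ cells. Without cells rich in these markers by that rule the NPMc+ ratio of Hk2 was 1.77, and in female cells it was 1.27. Hk3, another isoenzyme that is not among the 35 genes, was higher in both libraries that carry Flt3-ITD, with 17.0, 22.3, 35.1 and 47.0 CPM. The share of Hk2 among the UMIs of Hk1, Hk2 and Hk3 was 21.2% (Mx), 25.7% (NPMc+), 16.7% (Flt3-ITD) and 6.64% (double mutant), and that of Hk3 was 10.6%, 10.4%, 20.1% and 26.1%.

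The next steps of the first stage were higher in the double mutant by less than 1.5-fold, except for a single aldolase. Gpi1, the glucose 6-phosphate isomerase, stood at 428, 431, 427 and 633 CPM in Mx, NPMc+, Flt3-ITD and the double mutant, a double mutant ratio of 1.48 (1.44 to 1.52). Pfkl, the main phosphofructokinase here with 66.6% to 73.2% of the family's UMIs, stood at 126, 135, 122 and 175 CPM (ratio 1.39). Pfkm (27.7, 26.4, 26.3 and 29.6 CPM) and Pfkp (35.4, 37.8, 24.1 and 34.5 CPM) did not share this difference, with double mutant ratios of 1.07 and 0.975. Pfkp lay just inside 1.5-fold in Flt3-ITD, at 0.68. Tpi1, the triose phosphate isomerase, stood at 329, 357, 332 and 478 CPM (ratio 1.46).

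Aldolases cleave fructose 1,6-bisphosphate, and Aldoa and Aldoc separated in these libraries. Aldoa, the common form, stood at 526, 569, 524 and 758 CPM, with a double mutant ratio of 1.44 (1.41 to 1.48). Aldoc (chr11:78322968-78327781, plus strand), best known from brain, stood at 27.3 CPM (Mx), 15.3 (NPMc+), 25.7 (Flt3-ITD) and 70.0 (double mutant). Its ratio to Mx was 0.56 (0.49 to 0.64) in NPMc+ and 2.57 (2.34 to 2.83) in the double mutant, on opposite sides of the control. Of the aldolase UMIs 4.93%, 2.61%, 4.68% and 8.45% were from Aldoc. In female cells the NPMc+ ratio was 0.78. The double mutant ratio was 2.43 in male cells and 1.33 (0.94 to 1.87) in the 179 female cells of that library, whose counting interval includes 1.

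The genes of the ATP-yielding second stage were higher together in the double mutant. Gapdh, the glyceraldehyde 3-phosphate dehydrogenase, stood at 1081 CPM (Mx), 1204 (NPMc+), 1101 (Flt3-ITD) and 1630 (double mutant). Pgk1, the phosphoglycerate kinase that makes the first ATP of the pathway (chrX:106187100-106203699, plus strand), stood at 241, 263, 268 and 423 CPM. Pgam1, the phosphoglycerate mutase, stood at 180.0, 159, 183 and 295 CPM. The double mutant was the highest library for each of these 3 genes, and the other 3 libraries lay close together. Eno1, the main enolase (chr4:150236721-150248879, plus strand), stood at 221, 286, 311 and 459 CPM, so that both single mutants lay above Mx and the double mutant above both. Pkm, the pyruvate kinase that makes the last ATP, stood at 647, 602, 670.2 and 1010.3 CPM. The double mutant ratios were 1.51 for Gapdh (1.48 to 1.53), 1.76 for Pgk1 (1.70 to 1.82), 1.64 for Pgam1 (1.58 to 1.71), 2.07 for Eno1 (2.0 to 2.14) and 1.56 for Pkm (1.53 to 1.59). The muscle enolase Eno3 stayed between 6.05 and 7.71 CPM in the 4 libraries.

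These ratios depended on the cells and on the total used. With mitochondrial and ribosomal protein genes left out of the library total they were 1.32 for Gapdh, 1.53 for Pgk1, 1.43 for Pgam1, 1.81 for Eno1 and 1.36 for Pkm. With TMM scaling Gapdh stood at 1.48. In female cells they were 1.31, 1.24, 1.18, 1.75 and 1.13, and in male cells 1.56, 1.86, 1.66, 2.15 and 1.59. Eno1 alone of the 5 stayed above 1.5-fold in each of these settings. Annotated near-identical copies, which could share reads with their parent gene, were assigned few UMIs. The 98 Gapdh copies found summed to 2.05% of the Gapdh level in Mx and 3.61% in the double mutant, and those of Eno1 to 1.47% and 2.35%. How reads that match both a gene and a copy were counted is not given, so these values do not show how many reads were shared or dropped. For Gpi1, short near-identical stretches of its 3' end occur in Adh5 and Mrpl27, and together with a pseudogene these genes stood at 48.1% of the Gpi1 level in Mx and 42.1% in the double mutant.

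**Figure D2:**
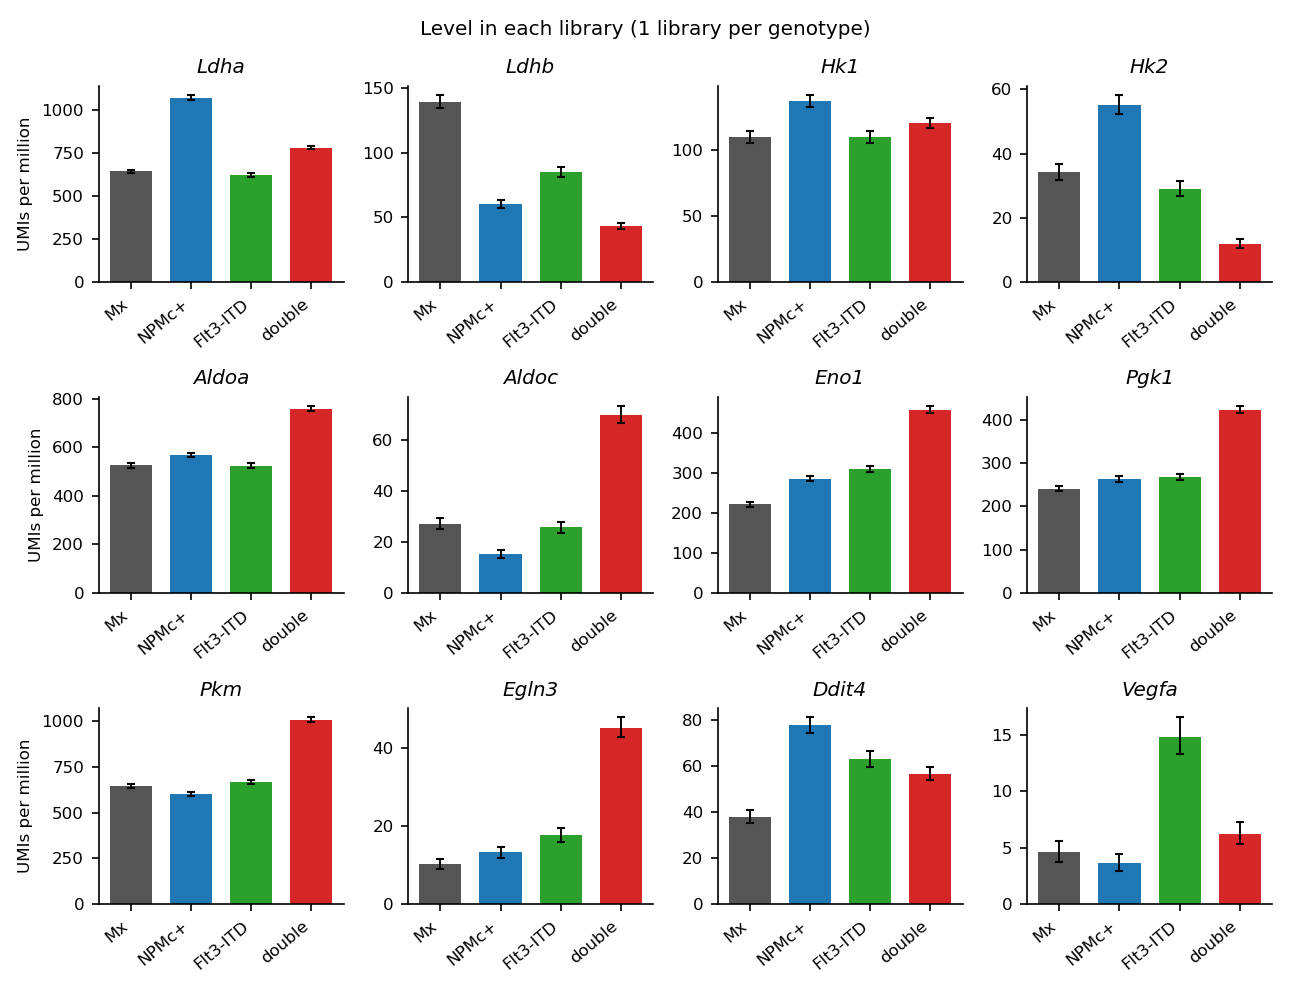
CPM in each library for 12 of the 35 genes, with exact 95% counting intervals on the bars and a linear axis from 0. The label "double" stands for NPMc+/Flt3-ITD. Ldha and Ddit4 are highest in NPMc+, Vegfa in Flt3-ITD, and Aldoc, Eno1, Pgk1, Pkm and Egln3 in the double mutant, while Ldhb is highest in Mx.

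Lactate dehydrogenase converts pyruvate and lactate, with Ldha encoding the M subunit that favours lactate and Ldhb the H subunit that favours pyruvate. Ldha (chr7:46841475-46855627, plus strand) stood at 643 CPM (Mx), 1073 (NPMc+), 623 (Flt3-ITD) and 782 (double mutant). It was highest in NPMc+, 1.67-fold over Mx (1.63 to 1.70), and 1.22-fold over Mx in the double mutant. Ldhb (chr6:142490249-142507957, minus strand) stood at 139, 60.4, 85.2 and 43.4 CPM, highest in the control and lower in all 3 mutants. Its ratio to Mx was 0.43 (0.41 to 0.46) in NPMc+, 0.61 (0.58 to 0.65) in Flt3-ITD and 0.31 (0.29 to 0.33) in the double mutant. Ldhb made up 17.8% of the lactate dehydrogenase UMIs in Mx, 12.0% in Flt3-ITD, 5.33% in NPMc+ and 5.26% in the double mutant. That share does not depend on the library total, and the intervals of NPMc+ (5.07% to 5.60%) and the double mutant (4.97% to 5.56%) overlap.

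The low Ldhb level of NPMc+ and the double mutant was found in the subsets of cells as well. In NPMc+, cells with at least 3 UMIs of megakaryocyte markers at 3000 UMIs held 1165 CPM of Ldha and 37.3 of Ldhb, and the other cells 965 and 86.8. The direction was the same in each library. In Mx the values were 784 and 109 against 567 and 155, and in Flt3-ITD 798 and 58.0 against 545 and 97.9. In the double mutant they were 804 and 44.8 against 719 and 49.5. Such cells were 38.5% of the thinned cells in NPMc+ and 15.7% in Mx. The megakaryocyte markers summed to 459, 1165, 362 and 271 CPM in the 4 libraries, led in NPMc+ by Pf4 at 541 CPM against 100.3 in Mx, with Gp6 at 0 in each library except Flt3-ITD, which held 1 UMI. Without cells rich in these markers by the rule of 0.2% of UMIs, which is not the split at 3 UMIs, the NPMc+ ratios were 1.64 for Ldha and 0.48 for Ldhb. The Ldha ratio in female cells was 1.48. In male cells the Ldhb ratios of NPMc+, Flt3-ITD and the double mutant were 0.45, 0.48 and 0.30, and in female cells 0.43, 0.80 and 0.45. The Flt3-ITD difference in Ldhb was thus under 1.5-fold in female cells and, with TMM scaling, over all cells (0.68).

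**Figure D3:**
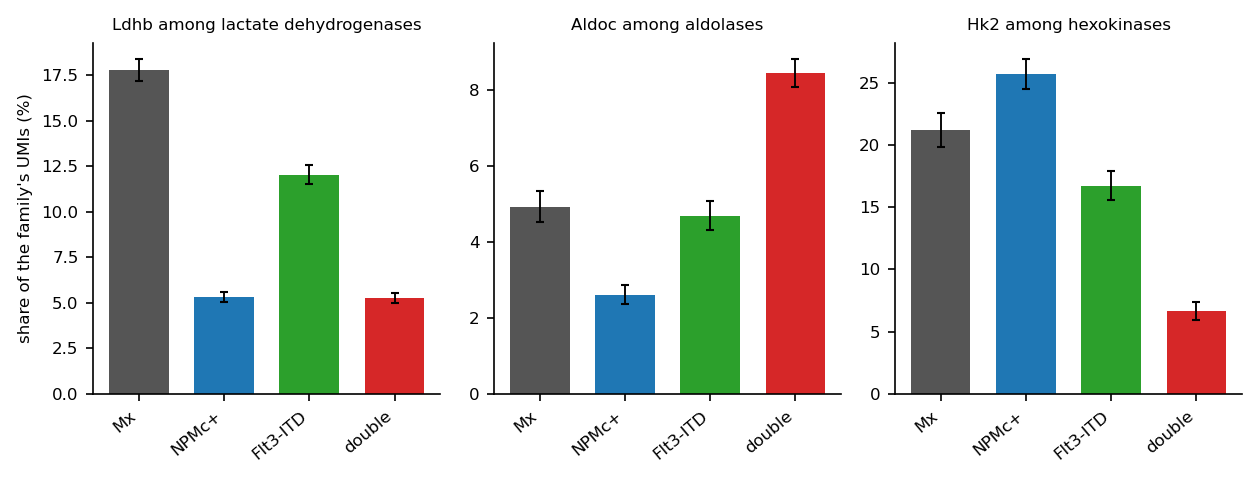
Share of Ldhb among lactate dehydrogenase UMIs (Ldha and Ldhb), of Aldoc among aldolase UMIs (Aldoa and Aldoc) and of Hk2 among hexokinase UMIs (Hk1, Hk2 and Hk3) in each library, in percent, with exact 95% binomial intervals. The label "double" stands for NPMc+/Flt3-ITD. The Ldhb share is 17.8% in Mx and 5.33% and 5.26% in the libraries that carry NPMc+, while the Aldoc share is lower in NPMc+ and higher in the double mutant than in Mx and the Hk2 share the reverse.

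Lactate leaves the cell with a proton through monocarboxylate transporters. Slc16a1 (MCT1) stood at 17.9, 22.9, 19.9 and 29.7 CPM, a double mutant ratio of 1.66 (1.47 to 1.88), which was 1.45 with mitochondrial and ribosomal protein genes left out of the total. Slc16a3 (MCT4), under the level of 20 CPM, stood at 4.63, 8.02, 4.87 and 8.57 CPM. It was higher in both libraries that carry NPMc+, with ratios of 1.73 (1.35 to 2.23) and 1.85 (1.45 to 2.37).

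Promoter sequences are shown for Ldha and Ldhb, which encode subunits of a single enzyme and differed in opposite directions in NPMc+, for Pgk1 from the higher block of the double mutant, and for Egln3, which lay furthest from Mx. HIF-1 binds the core ACGTG, and GCGTG is its other common form. Both were searched on both strands in the RefSeq promoters (GRCm38.p6, from 250 bases before to 50 after the start). Capitals mark each match on either strand, so that CACGT is an ACGTG of the other strand and the palindrome CACGTG counts once on each strand. The promoters lie at chr7:46845554-46845853 (plus strand) for Ldha, chr6:142507908-142508207 (minus) for Ldhb, chrX:106186850-106187149 (plus) for Pgk1 and chr12:54203825-54204124 (minus) for Egln3.
Ldha: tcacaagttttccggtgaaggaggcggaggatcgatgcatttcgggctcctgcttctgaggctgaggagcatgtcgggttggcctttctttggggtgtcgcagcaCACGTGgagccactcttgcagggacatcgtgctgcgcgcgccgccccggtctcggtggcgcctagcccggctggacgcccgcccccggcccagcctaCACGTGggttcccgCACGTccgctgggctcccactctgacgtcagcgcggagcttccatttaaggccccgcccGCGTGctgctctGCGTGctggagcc
Ldhb: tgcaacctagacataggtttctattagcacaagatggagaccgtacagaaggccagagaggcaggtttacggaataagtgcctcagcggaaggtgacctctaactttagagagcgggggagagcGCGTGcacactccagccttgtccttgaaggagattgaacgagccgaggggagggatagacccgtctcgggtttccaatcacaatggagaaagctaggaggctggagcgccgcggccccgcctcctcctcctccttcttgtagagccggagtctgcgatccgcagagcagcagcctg
Pgk1: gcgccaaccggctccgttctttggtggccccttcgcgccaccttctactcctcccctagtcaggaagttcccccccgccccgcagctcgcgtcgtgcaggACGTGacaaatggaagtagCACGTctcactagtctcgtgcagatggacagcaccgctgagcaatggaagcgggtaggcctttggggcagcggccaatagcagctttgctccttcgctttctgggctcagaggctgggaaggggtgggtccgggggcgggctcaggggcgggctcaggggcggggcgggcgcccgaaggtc
Egln3: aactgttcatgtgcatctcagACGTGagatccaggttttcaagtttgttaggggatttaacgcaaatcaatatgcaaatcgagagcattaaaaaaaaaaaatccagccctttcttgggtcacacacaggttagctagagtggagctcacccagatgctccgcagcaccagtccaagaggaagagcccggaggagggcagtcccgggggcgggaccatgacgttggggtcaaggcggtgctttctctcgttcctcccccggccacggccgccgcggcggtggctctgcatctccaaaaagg
The Ldha promoter shown held 5 ACGTG and 2 GCGTG matches, that of Pgk1 2 and 0, that of Egln3 1 and 0, and that of Ldhb 0 and 1. Ldha had 2 promoters, and the one with more matches was chosen for display. Its other promoter (chr7:46846832-46847131, plus strand) held 0 ACGTG and 2 GCGTG. Ldhb, Pgk1 and Egln3 had 1 promoter each. Over all 35 genes, 32 matched the table with 48 promoters, of which 52.1% held ACGTG and 58.3% GCGTG. Of all 32851 promoters 19.6% held ACGTG and 32.4% GCGTG, and of the 6284 promoters of genes at a mean of 20 CPM or more 27.8% and 52.7%. A match is a stretch of letters and does not show binding.

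The regulators between glycolysis and respiration and the oxygen sensors gave a different pattern in each mutant. Pdk1, the kinase that keeps pyruvate out of mitochondria by inhibiting pyruvate dehydrogenase, stood at 52.3 CPM (Mx), 34.0 (NPMc+), 43.0 (Flt3-ITD) and 62.5 (double mutant). NPMc+ was the lowest library, at a ratio of 0.65 (0.59 to 0.71), which was 0.72 with TMM scaling, 0.67 in male cells and 0.73 in female cells. Hif1a, the oxygen-regulated subunit of HIF-1, is controlled mainly through its protein. Its mRNA stood at 24.9, 16.9, 24.0 and 33.3 CPM, a ratio to Mx of 0.68 (0.60 to 0.77) in NPMc+ and 1.34 (1.20 to 1.49) in the double mutant. The double mutant ratio turned below 1 in female cells (0.84, 0.54 to 1.26) and without cells rich in T lineage markers (0.98). The 6-phosphofructo-2-kinases that set the flux through phosphofructokinase were scarce, with Pfkfb3 at 9.36, 8.58, 9.83 and 13.8 CPM and Pfkfb4 at 8.55, 5.03, 4.73 and 6.38 CPM.

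Egln3, which encodes the prolyl hydroxylase PHD3 that marks HIF subunits for degradation and is itself a HIF target, gave the largest double mutant ratio of the 26 genes (chr12:54178981-54203860, minus strand). It stood at 10.2 CPM (Mx), 13.2 (NPMc+), 17.8 (Flt3-ITD) and 45.4 (double mutant). Egln3 is among the 26 genes only through this double mutant level. Its ratio to Mx was 1.74 (1.47 to 2.07) in Flt3-ITD and 4.44 (3.84 to 5.16) in the double mutant. The main prolyl hydroxylase Egln1 (PHD2) stayed between 3.51 and 5.93 CPM.

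The Egln3 level of the double mutant was concentrated in cells with T lineage markers. The 9 T lineage markers summed to 33.1, 26.2 and 28.4 CPM in Mx, NPMc+ and Flt3-ITD and to 816 in the double mutant, where Trbc1 (330.0 CPM), Tcf7 (192), Lck (185) and Bcl11b (87.9) led. The CD3 genes Cd3e, Cd3d and Cd3g lay between 0.185 and 1.55 CPM in all 4 libraries. At 3000 UMIs, 628 double mutant cells (21%) held at least 3 UMIs of the list, and their Egln3 level was 124 CPM against 29.9 in the other 2363. Hif1a (84.4 against 26.7 CPM), Ankrd37 (28.1 against 13.3) and Pfkfb3 (24.4 against 12.6) were also higher in these cells, while Slc2a3 was lower (15.4 against 72.9). Without cells rich in T lineage markers the double mutant ratio of Egln3 was 3.14, and without cells rich in markers of any committed lineage 2.74. In the 179 female cells it was 1.84 (1.13 to 2.95), against 4.36 in male cells.

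The hypoxia-induced genes did not differ as a block in the single mutants. Ddit4 (REDD1), an inhibitor of mTORC1 that is also induced by other stresses, stood at 37.9 CPM (Mx), 77.5 (NPMc+), 62.8 (Flt3-ITD) and 56.5 (double mutant). All 3 mutants lay above Mx, by 2.05-fold (1.88 to 2.22), 1.66-fold (1.52 to 1.81) and 1.49-fold (1.37 to 1.63). In male cells the Flt3-ITD ratio was 1.35 and in female cells 2.22. The immediate-early genes, a list that also responds to cell isolation, summed to 6264, 13809, 22547 and 15065 CPM in the 4 libraries, and their part in the Ddit4 levels was not tested. Vegfa, the angiogenic growth factor, stood at 4.58, 3.63, 14.8 and 6.23 CPM and was 3.24-fold over Mx (2.57 to 4.11) in Flt3-ITD, though under a mean of 20 CPM.

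The mitophagy receptors Bnip3 and Bnip3l stood at 28.0, 25, 29.4 and 40.9 CPM and at 190.3, 201, 199 and 232 CPM, with double mutant ratios of 1.46 and 1.22. Ndrg1, a stress-induced gene, stood at 102, 116, 85.8 and 131 CPM. Kdm3a, a histone demethylase, stood at 22.3, 15.1, 19.9 and 24.5 CPM, and its NPMc+ ratio of 0.68 lay just inside 1.5-fold. Ankrd37 (5.78, 5.46, 4.82 and 14.5 CPM) was 2.50-fold over Mx in the double mutant (2.04 to 3.10), and P4ha1, a collagen prolyl hydroxylase, stood at 16.3, 13.5, 18.1 and 22.1 CPM. Egln3 and Kdm3a reached a mean of 20 CPM only through the double mutant library. With them, all 8 genes of this list at that mean lay above 1 in the double mutant (median ratio 1.31), where 69.6% of all genes did. In female cells 5 of the 8 did, with Pdk1 (0.97), Hif1a (0.84) and Kdm3a (0.85) below 1. With the reduced total 7 did, with Kdm3a at 0.96 and a median of 1.14, and without cells rich in markers of any committed lineage 6 did. In NPMc+ and Flt3-ITD 4 of the 8 lay above 1, with median ratios of 0.971 and 1.0.

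At equal UMIs per cell, the median and both quartiles of the enzyme total were higher in the double mutant than in Mx. Totals this small carry wide counting error, so their distribution cannot tell a shift of most cells from a mixture of groups. Each cell was thinned to 3000 UMIs, which left out 881 shallower cells. The 3000 UMIs include ribosomal protein genes, which took 30.0% of UMIs in Mx and 19.9% in the double mutant. That gap raises the count of other genes per double mutant cell. Its part in the higher enzyme total was not tested, as no per-cell total was taken without these genes. The median total of the 21 enzymes and transporters was 14 UMIs for Mx (quartiles 12 and 17), 16 for NPMc+ (13 and 19), 14 for Flt3-ITD (11 and 17) and 20 for the double mutant (16 and 24). The double mutant had 64.3% of its cells above the upper quartile of Mx, against 37.0% in NPMc+, 23.6% in Flt3-ITD and 22.5% in Mx itself. The spread was also wider, with a variance of 2.23 times the mean in the double mutant and 1.29 to 1.48 times in the other libraries. The hypoxia list gave a mean of 1.62, 1.68, 1.66 and 2.26 UMIs per cell.

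**Figure D4:**
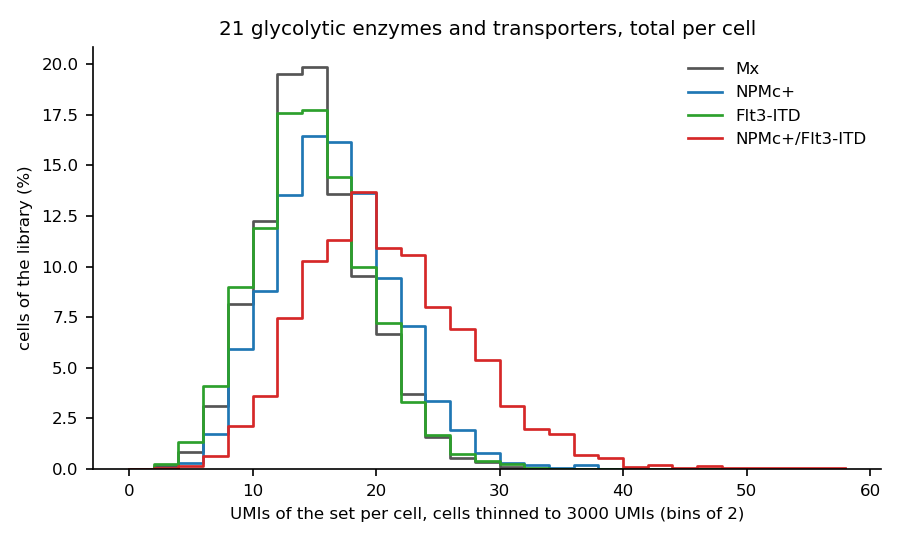
Distribution over cells of the summed UMIs of the 21 enzymes and transporters, in bins of 2 UMIs, as percent of the cells of each library after every cell was thinned to 3000 UMIs. The 3000 UMIs include ribosomal protein genes, whose share was lowest in the double mutant. The Mx and Flt3-ITD curves nearly coincide, NPMc+ is shifted slightly to the right, and the double mutant curve is shifted further and is wider, with a single peak.

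Cycling cells (at least 3 UMIs of the G2/M list at 3000 UMIs) made up 19.3%, 34.0%, 32.0% and 45.8% of the thinned cells. The enzyme total of the double mutant relative to Mx was nearly the same within cycling cells (1.39) and within the other cells (1.41). It was 1.44 within male and 1.29 within female cells. Double mutant cells with and without 3 UMIs of T lineage markers had mean totals of 19.8 and 20.6 UMIs. Ldha behaved otherwise by sex, with 901 CPM in female and 722 CPM in male double mutant cells at 3000 UMIs.

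Within each library the enzyme total was only weakly related to the other programmes. Pearson's r over the 2175 to 2991 cells of a library was 0.17 to 0.27 with the oxidative phosphorylation list, −0.33 to −0.11 with the immediate-early list, −0.11 to −0.03 with the G2/M list and −0.07 to −0.01 with the hypoxia list. These cells share a library and a fixed total of 3000 UMIs, so a higher share of any list lowers that of the others. Ldha and Ldhb were not exclusive from cell to cell, with r of −0.08 to −0.03.

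**Figure D5:**
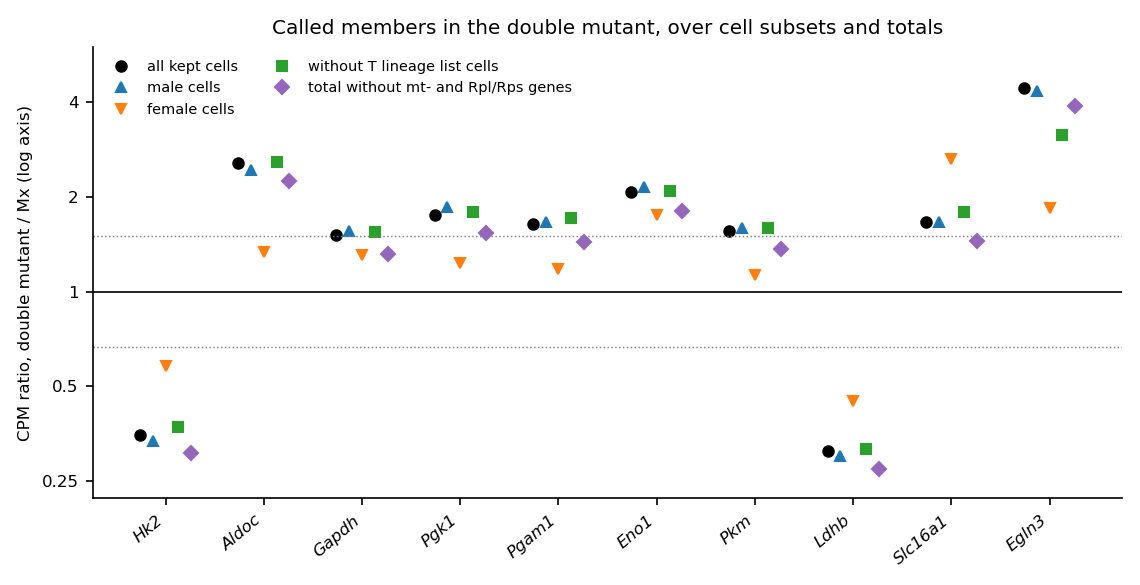
CPM ratio of NPMc+/Flt3-ITD to Mx on a log axis for the 10 genes counted as higher or lower, over all kept cells, male cells, female cells, cells without the T lineage list, and with mitochondrial and ribosomal protein genes left out of the total. Dotted lines mark 1.5-fold. Every point lies on the same side of 1 as that of all kept cells, and the female cells (179 in the double mutant) lie closest to 1 for 9 of the 10 genes, Slc16a1 being the exception.

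Set against the single mutants, the double mutant was higher for more of the 26 genes than it was lower. Against NPMc+, 10 genes were higher and 1 (Hk2) was lower, where 11.7% and 7.51% of all genes were. The 10 were Aldoc, Pgk1, Pgam1, Eno1, Pkm, Pdk1, Hif1a, Egln3, Bnip3 and Kdm3a, and the ratio of Hk2 was 0.22 (0.19 to 0.24). Without cells rich in T lineage markers the Hif1a ratio was 1.44 in place of 1.97. In female cells 3 genes were higher, where 11.2% of all genes were. Egln3 stood there at 1.07 in place of 3.43, Aldoc at 1.71 in place of 4.58, Hif1a at 1.16 and Pgam1 at 1.19. Against Flt3-ITD, 6 genes were higher (Aldoc, Pgk1, Pgam1, Pkm, Egln3 and Ndrg1) and 2 lower (Hk2 and Ldhb), where 11.3% and 7.46% of all genes were. In female cells Egln3 stood at 1.06 in place of 2.55, Aldoc at 1.3 in place of 2.72, Pgam1 at 1.08 and Pkm at 1.03. Both comparisons share the double mutant library with the comparison against Mx. Egln3 and Kdm3a reached a mean of 20 CPM only through that library, so their place in these counts rests on the level that is compared. With mitochondrial and ribosomal protein genes left out of the total the counts were 6 higher and 4 lower against NPMc+ and 2 and 2 against Flt3-ITD. The shares of all genes were then 7.19% and 9.41%, and 6.07% and 9.40%. With TMM scaling they were 5 and 4, and 2 and 2, and all genes turned from 729 higher and 470 lower to 425 and 607, and from 708 and 467 to 351 and 607.

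The double mutant was also compared with the level that would result if the ratios of the single mutants multiplied. Its level over that product was 4.85 for Aldoc (4.14 to 5.69), 2.24 for Pdk1 (1.98 to 2.52), 2.04 for Hif1a (1.73 to 2.41), 1.97 for Egln3 (1.60 to 2.42), 1.82 for Pgam1 and Kdm3a, 1.62 for Pkm and 1.56 for Bnip3. It was 0.25 for Hk2 (0.22 to 0.30) and 0.44 for Ddit4 (0.39 to 0.49). Thus 8 of the 26 genes lay at least 1.5-fold above the product and 2 below it, and of all genes 20.7% and 8.62% did. Egln3 and Kdm3a, both among the 8, reached a mean of 20 CPM only through the double mutant level that is compared here. With TMM scaling 4 lay above and 3 below, against 7.53% and 14.1% of all genes. In female cells 2 lay above and 3 below, against 19.2% and 7.71% of all genes. Ldhb lay near the product, at 1.17 (1.07 to 1.29), and Eno1 at 1.14. In female cells the value was 1.67 for Aldoc, 0.62 for Egln3 and 0.92 for Bnip3, and without cells rich in T lineage markers it was 1.43 for Egln3 and 1.5 for Hif1a.

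Among the other genes of glucose metabolism, the pentose phosphate pathway, which makes NADPH and ribose from glucose 6-phosphate, was higher in the double mutant. Of its 7 listed genes 6 reached 20 CPM and 5 of these were at least 1.5-fold over Mx, where 13.1% of all genes were. With mitochondrial and ribosomal protein genes left out of the total 2 of the 6 were, where 6.70% of all genes were. These 2 were Pgls at 1.67 and Taldo1 at 1.56. Pgls, the lactonase, stood at 212 CPM (Mx), 243 (NPMc+), 218 (Flt3-ITD) and 407 (double mutant), and Taldo1, the transaldolase, at 252, 362, 304 and 451. Pgd, Tkt and Rpia had double mutant ratios of 1.68, 1.56 and 1.5. None of the 6 was counted in NPMc+ or Flt3-ITD, where their median ratios were 1.20 and 1.09. Over all 52 other glucose metabolism genes, 24 reached the level, of which the double mutant had 8 higher and 1 lower, Flt3-ITD 1 and 1, and NPMc+ 0 and 1. The shares of all genes were 13.1% and 8.81%, 4.48% and 4.68%, and 4.33% and 7.07%. With the reduced total the double mutant had 3 higher and 1 lower, against 6.70% and 12.4% of all genes. The lower gene was in each case Txnip, an arrestin-like inhibitor of glucose uptake, at 459 CPM (Mx), 278 (NPMc+), 167 (Flt3-ITD) and 182 (double mutant). Its ratios were 0.61 (0.59 to 0.62), 0.36 (0.35 to 0.38) and 0.40 (0.38 to 0.41).

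Of 46 further HIF pathway and hypoxia genes, 21 reached the level. Of these, NPMc+ and Flt3-ITD each had 2 higher and 3 lower, and the double mutant 4 higher and 1 lower. The shares of all genes were 4.33% and 7.07%, 4.48% and 4.68%, and 13.1% and 8.81%. With TMM scaling NPMc+ had 6 higher and 2 lower, against 7.54% and 4.12% of all genes. With the reduced total the double mutant had 4 and 3, against 6.70% and 12.4%. Hilpda, a lipid droplet protein, stood at 38.2, 56.3, 74.4 and 91.5 CPM. Bhlhe40, a transcriptional repressor, stood at 12.0, 17.7, 58.6 and 32.9 CPM, highest in Flt3-ITD like Vegfa. Anxa2, a calcium-dependent membrane protein, was 5.67-fold over Mx in the double mutant (5.25 to 6.14), with 34.9, 43.4, 38.6 and 198 CPM. Vldlr, a lipoprotein receptor, was higher in NPMc+ (1.62) and lower in Flt3-ITD (0.42) and the double mutant (0.31). The median ratio of the 21 genes was 0.962, 0.993 and 1.05.

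Transcript length was looked at because the double mutant was low in short transcripts. Genes whose longest annotated transcript is under 600 bases had a median log2 ratio to Mx of -1.44 (114 genes), those of 1000 to 2000 bases 0.31 and those of 2000 to 4000 bases 0.27. The enzymes of the same classes stood at 0.53 (6 genes) and 0.59 (7 genes), and none was under 600 bases. The 5 enzymes of 4000 bases or more had a median of 0.08, near the 0.07 of all such genes.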

How the data were processed

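The deposited tables hold raw UMI counts per gene and cell barcode, and the submitters' processing notes name STARsolo, STAR version 2.7.0c and the mouse build mm10 as what the authors used. The gene annotation and the treatment of reads that match several genes are not given in the sources used here. The 35 genes, the other lists and the alternatives were chosen with earlier results of these data known. Every member is accounted for, and of each other list at most the 4 genes furthest from no difference per mutant are named; the 3 further pentose phosphate genes, the CD3 and leading lineage markers and the lower oxidative phosphorylation calls were chosen after their values were seen.

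UMIs of kept cells were summed per library and scaled to the total with Python 3.11.15, numpy 2.4.6, scipy 1.17.1 and pandas 2.3.3. Ratios carry exact (Clopper-Pearson) intervals. Doublets were not removed. TMM factors came from edgeR 4.0.16, used for scaling only. Coordinates and transcript lengths came from GENCODE M21 (25415 symbols, 95.2%, matched), promoters from RefSeq, and near-identical copies (at least 95% identity over 90.0 bases within the last 600 bases) from BLAST+ 2.17.0. The interval and call functions and the thinning were tested on simulated data. Alternatives were other totals, cell filters, weights, level floors, a 2-fold threshold, and cells split by sex, lineage markers and cycling; 2 more, without T lineage or megakaryocyte marker cells, were added after the data were seen.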

Additional observations from a re-analysis of the deposited data

Results flagged for a closer look

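Gapdh in Flt3-ITD lay on opposite sides of Mx in the sexes: the ratio was 1.04 (1.01 to 1.06) in male cells and 0.957 (0.924 to 0.991) in female cells. It was picked out because both counting intervals exclude 1. It was the only such case among 105 pairs of a gene and a comparison (35 genes in 3 mutants against Mx), and the difference between the sexes was not tested, since each library mixes an unstated number of animals.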

How the results depend on the processing

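All 38 calls of single genes over the 5 comparisons kept their direction in the 12 settings that change the scaling or the cells, and 11 kept their 1.5-fold call in all 12. The summed enzyme ratio to Mx of NPMc+, Flt3-ITD and the double mutant was 1.24, 1.12 and 1.42 with TMM scaling, 1.09, 0.982 and 1.26 with mitochondrial and ribosomal protein genes left out of the total, 1.11, 0.984 and 1.39 with cells weighted equally, 1.14, 1.0 and 1.47 in male cells and 1.09, 1.02 and 1.32 in female cells. For the double mutant it was 1.48 without cells rich in markers of other lineages and 1.47 without cells rich in T lineage markers.

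In NPMc+ the higher genes were 1 at 2-fold in place of 3. The lower genes were 5 with the reduced total (8.31% of all genes), 1 in female cells (6.69%) and 1 at 2-fold. In Flt3-ITD the higher genes were 1 in male cells (4.96% of all genes) and 0 at 2-fold in place of 2. Its lower genes, 1 in the main setting, were 0 with TMM scaling (2.48% of all genes), in female cells (3.81%) and at 2-fold. They were 2 with the reduced total (5.71%), with cells weighted equally (4.64%), without cells of other lineages (4.56%) and without cycling cells (4.56%). They were also 2 without each gene's highest 1% of cells, at a floor of 5 CPM and with no floor. In the double mutant the higher genes were 4 with the reduced total (6.70% of all genes) and 3 at 2-fold in place of 8. The share of all genes was not taken at 2-fold, at the other floors or without each gene's highest 1% of cells. The value over the product of the single mutants fell below 1 in female cells for Egln3 (0.62) and Bnip3 (0.92). The cause of these shifts was not tested.

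TMM scaling moved the median log2 ratio of all genes from 0.01 to 0.15 in NPMc+ and from -0.05 to 0.10 in Flt3-ITD. No library could be left out, and no paired analysis was possible because each genotype had 1 library. Depth limits the values of the 9 genes under 20 CPM and of the 179 female cells of the double mutant.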

Other observations

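Respiratory chain and ATP synthase genes lay on both sides of Mx in the double mutant. Their 62 listed genes summed to 17889.9, 19342, 18359 and 15899 CPM (Mx, NPMc+, Flt3-ITD, double mutant). In the double mutant 24 were at least 1.5-fold lower than Mx, 2 were higher (Cox5a at 1.89 and Atp5b at 1.55) and 31 lay above 1. Of all genes 8.81% were lower, 13.1% higher and 69.6% above 1. The lowest were Atp5l, an ATP synthase subunit, at 0.19 (330.3 CPM in Mx and 64.3 in the double mutant), Ndufa1 at 0.34, Cox6c at 0.35 and Ndufs5 at 0.35. The low short transcripts of this library, a median log2 ratio of -1.44 under 600 bases, move with these small subunits, and their part in the result was not tested. In NPMc+ 1 gene of the list was counted, Cycs, the cytochrome c gene, at 1.63 (148 CPM for Mx and 242 for NPMc+), and 0 of 62 were counted for Flt3-ITD.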
